A study of Mus musculus with 9 samples.

Results

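Conventional dendritic cells of the type 2 lineage (cDC2) from wild-type mouse spleen were profiled before and after a combined stimulus of interferon-gamma (IFN-γ) and bacterial lipopolysaccharide (LPS). The results below describe what this stimulus did to gene expression in these wild-type (WT) cells, on 4 of the 9 Affymetrix gene arrays of the series. The activated group held 2 arrays of cDC2 that had been sorted from WT 129SvEv/Tac spleen, pre-treated with IFN-γ at 100 ng/ml for 1 h and then exposed to LPS from E. coli at 1 μg/ml for a further 3 h. The resting group held 2 arrays of the same sorted cells without the stimulus, and no label states if these unstimulated cells spent equal time in culture. The other 5 arrays, 4 of cDC2 from Batf-/- Batf3-/- mice of the same strain (DKO, 2 resting and 2 activated under the same scheme) and 1 of resting WT cDC1, entered the statistical fit to help estimate the spread, and the DKO response is set beside the WT response at the end. The labels do not say whether the replicates came from separate mice or from pooled spleens, so the p-values cover the spread among these arrays alone, and that spread could be technical.

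As background, IFN-γ binds the IFNGR1 and IFNGR2 receptor chains, which signal through JAK kinases to GAS elements and induce a secondary wave of regulators such as IRF1, while type I interferon acts through IRF9-containing complexes on the ISRE. LPS is sensed by TLR4 with MD-2 and CD14, which signal through MYD88 to NF-κB and MAP kinases and through TRIF to TBK1, IRF3 and type I interferon. In dendritic cells the combined signals are known for IL-12, chemokine and co-stimulatory molecule production, and both arms induce their own inhibitors, among them SOCS proteins, A20 and IκB proteins.

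Of the 28853 transcript clusters on the array, 21789 had a unique gene symbol, and the highest cluster of each symbol gave 19938 genes. A gene was tested when at least 1 group mean exceeded the median of all such clusters (5.94 on the log2 scale, 61.3 on the linear intensity scale), which left 10728 genes. A gene dim at rest could pass through another group, the activated group among them, which favours rises in the shares below. All values below are log2 intensities, given for resting replicates 1 and 2 and then for activated replicates 1 and 2, and all differences are activated minus resting on the log2 scale, with the standard error of the limma fit (n = 2 arrays per group). "Rose" and "fell" are used only for a Benjamini-Hochberg adjusted p below 0.05 in that fit, adjusted over all genes tested.

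The sorted cells were checked against lineage markers on these arrays. Irf4, the transcription factor of the cDC2 lineage, measured between 9.60 and 10.66 on the WT cDC2 arrays against 5.13 on the cDC1 array, and the pan-cDC factor Zbtb46 measured between 9.05 and 9.21. The defining cDC1 genes Xcr1 and Clec9a averaged 4.67 and 3.94 on the WT cDC2 arrays against 9.33 and 8.67 on the cDC1 array. Other cDC1 markers were closer, such as Cadm1 at 9.11 against 10.33, Wdfy4 at 9.02 against 10.34 and Batf3 at 8.44 against 8.59. All 15 cDC1 markers passed the intensity filter. Their mean was 6.41 and 6.36 at rest and 6.75 and 6.74 after activation, against 8.68 on the cDC1 array. Their median difference was 0.06. Of the 15, 1 rose, namely Irf8, and 0 fell in limma (2 higher and 2 lower at an unadjusted p below 0.05). Of the 16 cDC2 markers 12 passed the intensity filter. Over the 4 WT cDC2 arrays Sirpa averaged 9.73 against 7.05 on the cDC1 array, Zeb2 9.72 against 7.41, Cd4 7.22 against 5.58 and Mgl2 6.22 against 4.36. The cDC2 markers Cd300a, at 8.67 against 8.47, Ltb, at 7.16 against 7.37, and Cd300lg, at 6.38 against 6.49, differed little. The group means of the cDC2 surface genes Clec4a4, Cd209a, Clec10a and Itgam lay below the filter. Cd79a of B cells, Cd3d of T cells, Ncr1 of NK cells and Ly6g of neutrophils averaged between 4.06 and 4.37, also below the filter. Summed over the lists, 4 of 13 B cell, 4 of 11 T cell, 2 of 11 NK cell, 11 of 13 macrophage, 10 of 13 monocyte, 7 of 14 neutrophil and 9 of 12 plasmacytoid cell markers passed it. Among these were the B cell marker Blk, at an average of 8.25, the T cell marker Il7r, at 10.89, and the neutrophil markers Il1r2, at 9.08, and S100a9, at 8.06. The group means of Siglech, a defining plasmacytoid marker, lay below the filter. The mean of the macrophage markers ranged from 7.43 to 7.52 at rest and from 7.23 to 7.33 after activation, and that of the monocyte markers from 7.12 to 7.33 at rest and from 7.04 to 7.05 after activation. The mean of the neutrophil markers was 6.12 and 6.01 at rest and 6.11 and 6.09 after activation, and that of the plasmacytoid markers 7.11 and 7.34 at rest and 7.20 and 7.24 after activation. Their part in the results was not tested. In bulk RNA, fewer cells of a type and less RNA per cell cannot be told apart.

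Resting replicate 2 stood apart from resting replicate 1 in its interferon-induced genes before any stimulus was added. Of 68 antiviral interferon-stimulated genes tested, 66 were higher on resting replicate 2, by a median of 1.15, whereas the median gene over all genes tested differed by 0.00. Of the 30 genes with the largest gap in that direction, 19 were interferon effectors of the lists below. The mean level of the 68 genes was 8.83 and 10.13 on the resting WT arrays, 10.20 and 10.64 on the activated WT arrays, 8.48 and 8.78 on the resting DKO arrays and 10.30 and 10.20 on the activated DKO arrays. Resting WT replicate 2 was the high array among the 4 resting cDC2 arrays, and interferon results are given with and without it. In all, 244 genes differed at least 2-fold between the resting replicates and 168 between the activated replicates.

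Activation raised 426 genes (3.97% of those tested) and lowered 705 (6.57%), together 1131 genes or 10.5%. The rises were the larger changes. A rise of at least 2-fold was seen for 233 genes (2.17%) and a fall of that size for 145 (1.35%), a rise of at least 4-fold for 58 and a fall for 7, and a rise of at least 8-fold for 17 genes with no fall of that size. The median rise among called genes was 1.08 and the median fall 0.70 in size, while the median difference over all genes tested was -0.07. All 1131 genes had activated arrays that did not overlap the resting arrays and moved the same way from resting to activated within replicate number 1 and within replicate number 2, which was so in sign for 78.9% of all genes tested. Activated arrays lay wholly above the resting arrays for 2136 genes (19.9%) and wholly below for 3906 (36.4%), whatever the p. With the replicate number as a block, which treats the arrays of 1 number as a pair, 1222 genes rose (11.4%) and 2569 fell (23.9%), and every one of the 1131 was called again in the same direction. The split between rises and falls depended on the scaling, since 37.7% of calls were rises here and 49.1% after quantile normalization (460 rises and 477 falls), a step that moved the median of all genes to -0.02. Without activated replicate 2 the fit called 47 rises and 16 falls, without activated replicate 1 173 and 140, without resting replicate 1 94 and 56, and without resting replicate 2 318 and 232.

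**Figure D1:**
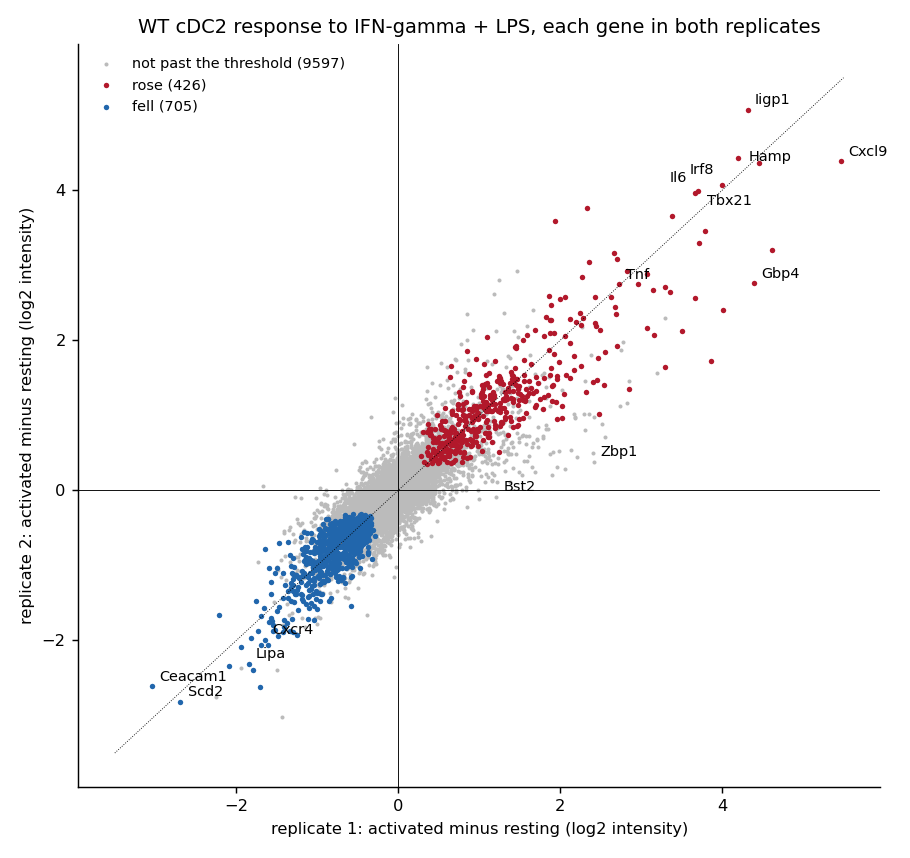
Each point is a gene tested, with its difference between activated and resting WT cDC2 in log2 intensity within replicate 1 on the horizontal axis and within replicate 2 on the vertical axis. The 426 genes that rose are red, the 705 that fell are blue, and the dotted line marks equal responses. Cxcl9, Iigp1, Il6 and Irf8 stand far out in both replicates, whereas the interferon-induced genes Zbp1 and Bst2 lie to the right of the line, with a smaller difference in replicate 2.

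The largest responses can be read beside the promoters of the genes that made them. The sequences below, from RefSeq (GRCm38.p6), are the 250 bases before the start site of the genes with the largest rises, among those searched, that held an ISRE or κB match, shown 5′ to 3′ on the gene's strand with the matches in capitals. Genes without a RefSeq promoter, among them Iigp1, Gbp4 and Cxcl11, could not be searched, so their absence here does not mean that they lack a match. The searches took an ISRE as GAAA, any 2 bases and GAAA again, and a κB site as GGGA, any 2 bases and TTCC, on either strand.
Calhm6, a calcium homeostasis modulator family member that rose by 3.91 ± 0.31, chr10:34127973-34128222, minus strand, ISRE match starting 64 bases before the start site: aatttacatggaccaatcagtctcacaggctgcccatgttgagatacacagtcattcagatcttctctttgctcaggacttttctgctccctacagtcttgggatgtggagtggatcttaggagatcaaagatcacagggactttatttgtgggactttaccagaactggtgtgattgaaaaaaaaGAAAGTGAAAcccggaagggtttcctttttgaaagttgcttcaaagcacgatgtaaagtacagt
Il6, encoding the inflammatory cytokine IL-6, which rose by 3.81 ± 0.16, chr5:30012864-30013113, plus strand, κB match starting 44 bases before the start site: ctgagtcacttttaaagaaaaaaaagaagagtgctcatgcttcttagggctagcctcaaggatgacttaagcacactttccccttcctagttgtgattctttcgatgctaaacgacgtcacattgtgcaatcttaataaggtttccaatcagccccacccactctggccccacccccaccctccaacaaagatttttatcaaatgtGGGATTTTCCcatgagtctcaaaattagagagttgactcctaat
Gbp7, a guanylate-binding protein that rose by 3.20 ± 0.58, chr3:142530086-142530335, plus strand, ISRE match starting 53 bases before the start site: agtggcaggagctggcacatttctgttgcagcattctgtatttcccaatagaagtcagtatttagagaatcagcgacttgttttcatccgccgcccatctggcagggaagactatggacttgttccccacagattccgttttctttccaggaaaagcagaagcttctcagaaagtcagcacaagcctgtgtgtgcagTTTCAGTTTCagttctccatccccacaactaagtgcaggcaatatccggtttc
Gbp2b, a further guanylate-binding protein, which rose by 2.80 ± 0.62, chr3:142594597-142594846, plus strand, ISRE match starting 137 bases before the start site: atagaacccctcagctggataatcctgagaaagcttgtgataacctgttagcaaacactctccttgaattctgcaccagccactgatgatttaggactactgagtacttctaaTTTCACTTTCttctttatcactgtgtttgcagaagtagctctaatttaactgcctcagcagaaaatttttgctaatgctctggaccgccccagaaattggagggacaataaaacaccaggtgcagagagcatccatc
Cxcl10, encoding a ligand of the chemokine receptor CXCR3, which rose by 2.62 ± 0.60, chr5:92348890-92349139, minus strand, ISRE match starting 213 bases and κB match starting 159 bases before the start site: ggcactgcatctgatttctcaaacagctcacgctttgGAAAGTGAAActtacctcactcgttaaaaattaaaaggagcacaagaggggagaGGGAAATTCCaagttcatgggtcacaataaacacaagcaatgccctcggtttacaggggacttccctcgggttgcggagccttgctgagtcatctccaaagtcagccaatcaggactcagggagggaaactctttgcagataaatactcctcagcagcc
Fcgr4, an activating Fc receptor for IgG that rose by 2.52 ± 0.27, chr1:171018676-171018925, plus strand, ISRE match starting 73 bases before the start site: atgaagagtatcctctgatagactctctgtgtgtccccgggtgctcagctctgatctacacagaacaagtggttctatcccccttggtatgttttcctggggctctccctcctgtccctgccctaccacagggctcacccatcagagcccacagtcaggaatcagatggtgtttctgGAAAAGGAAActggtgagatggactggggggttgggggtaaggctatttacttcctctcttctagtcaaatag

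Motif matches were counted from 250 bases before to 50 bases after the start site in the RefSeq promoters of 8610 of the 10728 genes tested. An ISRE match was found in 9.09% of the promoters of genes that rose at least 2-fold and in 17.6% of those that rose at least 4-fold, against 3.11% of promoters of all genes tested, 3.44% of all promoters in the table and 1.78% of those of genes that fell at least 2-fold. A GAS match (TTCNNNGAA) was found in 13.2% of promoters of genes that rose at least 2-fold and 21.6% of those that rose at least 4-fold, against 6.68% of those of genes tested, 8.3% of all and 5.33% of those that fell. For the κB site the shares were 3.31%, 9.8%, 1.54%, 1.47% and 2.96% in the same order, and for the AP-1 site TGANTCA they were 8.68%, 17.6%, 5.33%, 7.81% and 5.92%. The GC box GGGCGG was less frequent in promoters of genes that rose at least 2-fold (53.7%) than in those of genes tested (62.1%), with 35.7% of all promoters and 62.7% of those of genes that fell holding it. TATAAA was found in 9.5%, 7.07%, 13.6% and 9.47% of these sets, and in 15.7% of promoters of genes that rose at least 4-fold. That last set held 51 promoters of 44 genes, so 17.6% stands for 9 promoters and 9.8% for 5. Several promoters of 1 gene were counted apart. Of the 7 promoters of guanylate-binding proteins and related GTPases, 6 held an ISRE match, as did 34.7% of the promoters of the antiviral list, while 1 of 33 promoters of sterol genes did. These are matches to letters on either strand, 1 stretch can match several motifs, no test was made, and a match is not evidence of binding.

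**Figure D2:**
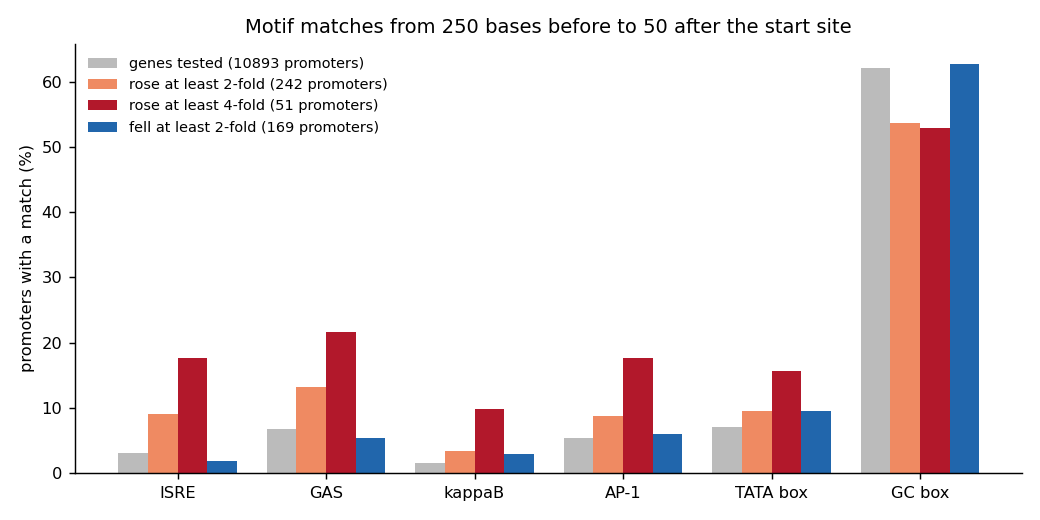
Bars give the percentage of RefSeq promoters with at least 1 match to each motif, for all genes tested and for the genes that rose at least 2-fold, rose at least 4-fold or fell at least 2-fold. ISRE, GAS, κB, AP-1 and TATA box matches reached 17.6%, 21.6%, 9.8%, 17.6% and 15.7% in genes that rose at least 4-fold (51 promoters). The GC box was found in 52.9% to 62.7% of the promoters of the sets shown.

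Of the inhibitors of JAK-STAT signalling Socs3, Cish and Ptpn2 rose, and the IFN-γ receptor chain gene Ifngr1 fell. Among 27 genes of the IFN receptor, JAK-STAT and SOCS list, 3 rose and 1 fell. Socs3, encoding an inhibitor of JAK signalling downstream of gp130 receptors, measured 6.92 and 7.12 at rest and 9.34 and 9.70 after activation, a rise of 2.50 ± 0.25 (adjusted p = 0.0068). With the mean of the Socs3 clusters in place of the highest cluster, the difference was 1.63. Cish, a STAT5-induced member of the same family, rose by 2.07 ± 0.17 from 5.63 and 5.48 at rest and 7.46 and 7.79 after activation. Ptpn2, a phosphatase that restrains JAK signalling, rose by 0.85 ± 0.16, and Socs1 differed by 0.92 without passing the test (adjusted p = 0.126). Ifngr1, the ligand-binding chain of the IFN-γ receptor, measured 8.35 and 8.09 at rest and 7.30 and 7.06 after activation and fell by 1.04 ± 0.15 (adjusted p = 0.0164). Its partner Ifngr2 differed by -0.35 (adjusted p = 0.676). In the TLR4 list, 2 of 19 genes rose and 2 fell. Myd88, the adaptor of most Toll-like receptors, measured 9.45 and 10.06 at rest and 10.87 and 11.23 after activation, a rise of 1.29 ± 0.24, and Tbk1, the kinase that activates IRF3, rose by 0.57 ± 0.12. Cd180, a TLR4 homologue that binds MD-1, fell by 0.85 ± 0.20, and Tab1, a subunit of the TAK1 complex, fell by 0.46 ± 0.08. Tlr4 itself lay below the intensity filter with 4.19 and 4.35 at rest and 4.23 and 4.16 after activation.

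In the NF-κB circuit, the IκB family genes Nfkbiz and Nfkbib and the A20 gene Tnfaip3 rose. Of 23 genes, 3 rose and 0 fell (in limma, 10 were higher and 0 lower at an unadjusted p below 0.05). Nfkbiz, encoding the nuclear cofactor IκBζ that LPS induces, measured 8.14 and 8.04 at rest and 10.02 and 10.32 after activation and rose by 2.07 ± 0.17 (adjusted p = 0.00375). Tnfaip3, encoding the ubiquitin-editing enzyme A20, rose by 0.94 ± 0.12 from 10.80 and 10.65 at rest and 11.60 and 11.74 after activation, and Nfkbib, encoding IκBβ, rose by 0.55 ± 0.12. The subunits Rela (0.47) and Relb (-0.21) and the inhibitor Nfkbia (0.52) did not pass the test. Of 33 MAP kinase pathway genes, 2 rose and 2 fell. The phosphatases Dusp2 and Dusp14 rose by 0.93 ± 0.17 and 0.69 ± 0.14, while the kinase genes Map3k1 and Map3k14, the latter encoding NIK of the alternative NF-κB pathway, fell by 0.84 ± 0.15 and 0.80 ± 0.16. Dusp1, an immediate early phosphatase, differed by -0.12. Of 17 other pattern recognition receptors 1 rose and 0 fell in limma (3 higher and 0 lower at an unadjusted p below 0.05). It was Nod1, the sensor of a peptidoglycan fragment, which measured 6.35 and 7.12 at rest and 8.31 and 8.65 after activation and rose by 1.74 ± 0.32. The nucleic acid sensor Zbp1 measured 8.78 and 11.30 at rest and 11.20 and 11.69 after activation, with resting replicate 2 at the level of the activated arrays. Over these 5 signalling lists, 11 of 119 genes rose (9.24%) and 5 fell (4.2%), and with the replicate block 42 rose and 13 fell. The counts of rises and falls were 3 and 0 without resting replicate 1, 7 and 1 without resting replicate 2, 5 and 2 without activated replicate 1, and 2 and 0 without activated replicate 2.

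Among transcription factors Irf8, Tbx21 and Irf1 rose most. Irf8, which encodes the factor that directs the cDC1 and plasmacytoid lineages and also answers to IFN-γ, measured 8.06 and 7.65 at rest and 12.06 and 11.73 after activation, a rise of 4.04 ± 0.33 (adjusted p = 0.00375). The resting WT cDC1 array measured 9.94 for Irf8, between the resting and the activated cDC2 arrays, and the other cDC1 genes Xcr1 and Clec9a differed by 0.07 and 0.33 in activated cDC2 without passing the test. Tbx21, encoding T-bet, measured 7.08 and 6.39 at rest and 10.79 and 10.38 after activation and rose by 3.85 ± 0.35 (adjusted p = 0.00509). Irf1, a primary IFN-γ response gene, measured 8.004 and 7.99 at rest and 10.45 and 10.18 after activation, with resting arrays almost equal, and rose by 2.32 ± 0.16, and Irf2 rose by 0.74 ± 0.17. Irf7 (0.87), Irf4 (0.86) and Irf3 (-0.50) did not pass the test, so that 3 of 9 IRF genes rose and 0 fell in limma (4 higher and 0 lower at an unadjusted p below 0.05). In the AP-1, BATF and CEBP list 3 of 30 genes rose, namely Mafk, a small MAF protein, by 1.48 ± 0.17, Batf2, an interferon-induced BATF family member, by 1.28 ± 0.16, and Jdp2 by 0.64 ± 0.12, while Cebpa fell by 0.82 ± 0.19. Batf3 measured 7.71 and 7.58 at rest and 8.56 and 9.92 after activation and Batf 6.74 and 7.37 at rest and 7.26 and 9.07 after activation, with activated replicate 2 the highest array for each, and neither passed the test (adjusted p = 0.0724 and 0.228). Atf3 measured 9.53 and 8.76 at rest and 10.55 and 9.82 after activation, higher on replicate 1 than on replicate 2 both at rest and after activation.

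Of the immediate early genes, Fos (0.24), Egr1 (0.21), Nr4a1 (0.21) and Myc (0.52) did not pass the test. Mycl, the MYC family member of dendritic cells, rose by 1.52 ± 0.16 from 6.35 and 6.57 at rest and 8.15 and 7.82 after activation, its partner Max rose by 1.23 ± 0.21, and Klf6 rose by 1.19 ± 0.15, whereas Klf3 fell by 0.40 ± 0.09, giving 3 rises and 1 fall among 26 genes. Dendritic cell lineage factors gave 3 rises and 6 falls among 31. Besides Tbx21, the plasmacytoid factor Tcf4 (E2-2) rose by 1.47 ± 0.16 from 8.79 and 9.12 at rest and 10.25 and 10.61 after activation and the Ikaros family gene Ikzf2 (Helios) by 1.12 ± 0.14. The myeloid factor Spi1 (PU.1) fell by 0.78 ± 0.15 from 10.67 and 10.96 at rest and 9.999 and 10.08 after activation, the related Spib by 0.80 ± 0.16, the corepressor gene Cbfa2t3 by 0.72 ± 0.16, the retinoic acid receptor gene Rarg by 0.67 ± 0.14, the clock gene Arntl by 0.67 ± 0.13. The oxysterol receptor gene Nr1h3 (LXRα) fell by 1.12 ± 0.26. Zbtb46 (0.10), Id2 (0.17) and Zeb2 (0.10) did not pass the test.

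Among chromatin regulators, the DNA methyltransferase gene Dnmt3a gave the largest fall, from 10.37 and 10.24 at rest and 8.87 and 8.63 after activation, a drop in which both activated arrays lay far below both resting arrays. It fell by 1.55 ± 0.12 (adjusted p = 0.00344), and the antisense transcript annotated at the same locus, Dnmt3aos, fell by 1.83 ± 0.17. The AT-rich interaction domain genes Arid5a, whose product stabilises Il6 mRNA, and Arid5b rose by 1.46 ± 0.18 and 1.504 ± 0.26, and the remodeller Chd1 rose by 1.22 ± 0.15. The histone demethylase gene Kdm6a and the deacetylase gene Hdac7 fell by 0.56 ± 0.12 and 0.45 ± 0.11, so that 3 of 35 genes rose and 3 fell. Over the 5 lists of transcription and chromatin genes, 15 of 131 rose (11.5%) and 11 fell (8.4%), and with the replicate block 33 and 26. Dropping resting replicate 1 gave 7 rises and 1 fall, without resting replicate 2 15 and 1, without activated replicate 1 13 and 1, and without activated replicate 2 4 and 1.

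Among secreted factors, 7 cytokine and 4 chemokine genes rose and 0 fell. Of 26 cytokine genes 7 rose, each by at least 2-fold (in limma, 14 were higher and 2 lower at an unadjusted p below 0.05). Il6 measured 5.78 and 5.63 at rest and 9.44 and 9.59 after activation, so that both activated arrays lay far above both resting arrays, and rose by 3.81 ± 0.16 (adjusted p = 0.000518). Tnf, encoding tumour necrosis factor, measured 9.36 and 8.31 at rest and 12.08 and 11.06 after activation, with replicate 1 above replicate 2 in each state, and rose by 2.74 ± 0.64 (adjusted p = 0.0469). Il12b, the p40 chain shared by IL-12 and IL-23, measured 8.94 and 8.04 at rest and 10.93 and 10.59 after activation and rose by 2.27 ± 0.29. Il27, encoding the p28 chain of IL-27, rose by 1.36 ± 0.13 from 7.15 and 7.21 at rest and 8.44 and 8.63 after activation, while Ebi3, its partner chain, measured 5.43 and 5.91 at rest and 6.85 and 8.04 after activation without passing the test (adjusted p = 0.0517). The alarmin gene Il33 rose by 1.39 ± 0.16 and Il18bp, whose product neutralises IL-18, by 1.20 ± 0.16. Il15 measured 7.16 and 9.68 at rest and 9.89 and 10.81 after activation, so resting replicate 2 was close to activated replicate 1, and it did not pass the test (adjusted p = 0.179). Il1b (0.47), Il10 (0.77) and Il18 (0.22) did not pass it either, and Il12a, Il23a and Ifnb1 lay below the intensity filter.

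The chemokine genes that rose were the CXCR3 ligands, which attract activated T cells and NK cells, and Ccl5. Cxcl9 gave the largest rise of all genes tested, from 6.98 and 8.02 at rest and 12.44 and 12.40 after activation, by 4.93 ± 0.32 (adjusted p = 0.00282). Cxcl11 measured 6.96 and 7.55 at rest and 10.26 and 10.26 after activation, with equal activated arrays, and rose by 3.01 ± 0.19, and Cxcl10 measured 9.57 and 10.47 at rest and 12.73 and 12.55 after activation and rose by 2.62 ± 0.60 (adjusted p = 0.0448). Ccl5, a T cell attractant that was already high at rest, rose by 0.45 ± 0.09 from 11.62 and 11.60 at rest and 12.12 and 12.002 after activation. Ccl3 measured 9.76 and 8.19 at rest and 11.54 and 9.73 after activation and Ccl4 8.05 and 7.07 at rest and 9.91 and 8.59 after activation. In both, resting replicate 1 was close to activated replicate 2, and neither passed the test (adjusted p = 0.302 and 0.15). Ccl17 (-0.05) and Ccl22 (0.16), the CCR4 ligands of mature dendritic cells, did not pass it. Of 22 chemokine genes 4 rose and 0 fell in limma (5 higher and 1 lower at an unadjusted p below 0.05). Over both lists 11 of 48 genes rose (22.9%) and 0 fell (0.0%), and with the replicate block 22 rose and 4 fell. The intensity filter favoured rises in this share, since 26 of 39 cytokine and 22 of 32 chemokine genes with a cluster of their own passed it. Il6 and Il33, with resting means at or below the filter, passed it through another group. The rises numbered 5 without resting replicate 1, 8 without resting replicate 2, 6 without activated replicate 1 and 4 without activated replicate 2, with no fall in any of these fits.

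Surface receptors for these signals moved in both directions. Of 33 G protein coupled receptor genes 2 rose and 6 fell. Hcar2, the receptor for nicotinic acid and ketone bodies, measured 5.97 and 5.68 at rest and 8.80 and 8.61 after activation and rose by 2.88 ± 0.21, and Ccrl2, an atypical chemokine receptor that presents chemerin, rose by 1.38 ± 0.24. Cxcr4, the receptor for the stromal chemokine CXCL12, measured 12.15 and 11.91 at rest and 10.51 and 9.92 after activation and fell by 1.82 ± 0.22 (adjusted p = 0.00952). Ccr9, a gut-homing receptor, fell by 2.09 ± 0.43 from 9.06 and 8.51 at rest and 7.27 and 6.12 after activation, Cx3cr1, the fractalkine receptor, by 1.31 ± 0.20 from 7.81 and 7.40 at rest and 6.22 and 6.36 after activation, the lysophosphatidic acid receptor gene Lpar6 by 1.21 ± 0.24. The succinate receptor gene Sucnr1 and the prostacyclin receptor gene Ptgir fell by 0.95 ± 0.14 and 0.79 ± 0.17. Ccr7, the lymph node homing receptor, differed by 0.46 (adjusted p = 0.188) from a high resting level, 11.94 and 12.48 at rest and 12.50 and 12.84 after activation.

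Of 36 cytokine and growth factor receptor genes, 7 rose and 6 fell. Il15ra, which presents IL-15 in trans, rose by 1.96 ± 0.38 from 7.74 and 8.93 at rest and 10.20 and 10.40 after activation. Il12rb2, an IL-12 receptor chain, rose by 1.77 ± 0.24 from 7.80 and 8.04 at rest and 9.34 and 10.04 after activation. Il10ra, the ligand-binding IL-10 receptor chain, rose by 1.87 ± 0.26 from 8.28 and 8.17 at rest and 10.14 and 10.04 after activation. Il17ra, Il2ra (CD25) and the TNF receptor gene Tnfrsf1a rose by 1.87 ± 0.16, 1.47 ± 0.28 and 1.22 ± 0.20. The gp130 chain Il6st, used by IL-6 and IL-27, measured 11.10 and 10.73 at rest and 9.501 and 8.98 after activation and fell by 1.68 ± 0.21 (adjusted p = 0.0108), and Il6ra fell by 0.69 ± 0.15. Tgfbr1 fell by 1.51 ± 0.28, and Csf1r, the receptor for M-CSF, by 0.99 ± 0.19. Csf2rb, the common β chain of the GM-CSF, IL-3 and IL-5 receptors, measured 12.02 and 11.96 at rest and 10.83 and 10.82 after activation and fell by 1.16 ± 0.10, and its close paralogue Csf2rb2 fell by 1.17 ± 0.13, values that probes shared between the paralogues could link. Flt3, the growth factor receptor of dendritic cells, measured 8.19 and 8.72 at rest and 7.14 and 7.54 after activation without passing the test (adjusted p = 0.103). Over both receptor lists 9 of 69 genes rose (13%) and 12 fell (17.4%), and with the replicate block 19 and 18. When resting replicate 1 was left out the counts were 2 rises and 1 fall, without resting replicate 2 7 and 8, without activated replicate 1 3 and 5, and without activated replicate 2 2 and 1.

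**Figure D3:**
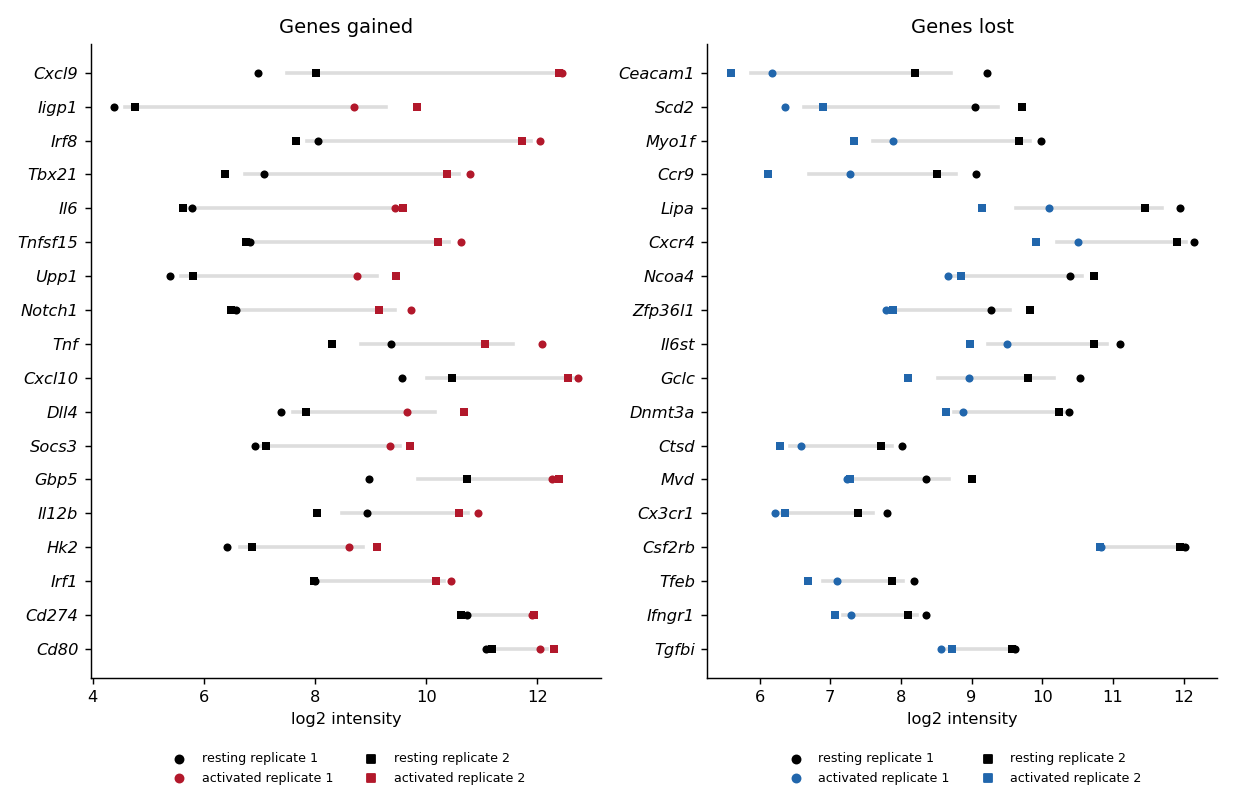
Log2 intensity of selected genes that rose (left) and fell (right), with resting arrays in black and activated arrays in colour, circles for replicate 1 and squares for replicate 2. Grey bars join the group means. Activated arrays do not overlap resting arrays for any gene shown, as for every called gene. Gbp5 has its resting arrays furthest apart, at 8.96 and 10.74.

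Among interferon effectors the group that rose was that of guanylate-binding proteins (GBPs) and immunity-related GTPases, which coat and disrupt vacuoles of intracellular microbes. Of 22 list members 12 had a cluster with 1 symbol, and 11 were tested. Of these 11, 9 rose and 0 fell, each rise at least 2-fold (all 11 were higher at an unadjusted p below 0.05 in limma), with a median difference of 2.47. The intensity filter favoured rises in this share, since Iigp1 and Gm4951, with resting means at or below the filter, passed it through another group. All 11 had activated arrays above both resting arrays, as did every gene called as risen and 19.9% of all genes tested. Iigp1 measured 4.38 and 4.77 at rest and 8.70 and 9.84 after activation and rose by 4.70 ± 0.35 (adjusted p = 0.00324), the family member Gm4951 rose by 3.04 ± 0.49, and Irgm1, a regulatory GTPase of the family, rose by 1.75 ± 0.32 from 8.57 and 9.49 at rest and 11.04 and 10.51 after activation. Gbp4 measured 7.63 and 9.48 at rest and 12.02 and 12.24 after activation and rose by 3.57 ± 0.54, Gbp7 measured 7.05 and 9.07 at rest and 11.06 and 11.47 after activation, Gbp5 measured 8.96 and 10.74 at rest and 12.26 and 12.39 after activation and rose by 2.47 ± 0.51, and Gbp3 and Gbp8 rose by 2.10 ± 0.49 and 1.89 ± 0.36. For the GBP genes resting replicate 2 lay between resting replicate 1 and the activated arrays, so the response within replicate 1 (list median 2.86) was larger than that within replicate 2 (1.65). The list median was 3.17 without resting replicate 2 and 1.58 without resting replicate 1. Without resting replicate 1 the differences were 1.72 for Gbp2b, 1.26 for Gbp3 and 1.58 for Gbp5, each less than the value above by over 1.5 times. Gm12250 and Gbp9 measured 8.003 and 9.77 at rest and 10.83 and 10.94 after activation and 7.62 and 9.22 at rest and 9.81 and 10.18 after activation without passing the test (adjusted p = 0.0567 and 0.09). GBP genes are close paralogues, and probes shared between them could link their values.

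Antiviral interferon-stimulated genes rose in a share close to the 3.97% of all genes tested that rose. Of 68 genes 3 rose and 0 fell in limma (29 higher and 0 lower at an unadjusted p below 0.05), with a median difference of 0.90 (1.35 within replicate 1 and 0.46 within replicate 2), and 46 were at least 2-fold higher within replicate 1 against 4 within replicate 2. The list median was 1.4973 without resting replicate 2 and 0.297 without resting replicate 1. It was 1.1015 without activated replicate 1 and 0.6668 without activated replicate 2. Resting replicate 2 was singled out above from these same 68 genes, so the larger median without it is not independent of that choice. With the replicate block 33 of the 68 rose. Ifit2, which inhibits translation of viral RNA, measured 10.21 and 11.17 at rest and 12.23 and 12.13 after activation and rose by 1.496 ± 0.36 (adjusted p = 0.0497), the DNA sensor family member Ifi205 rose by 1.45 ± 0.33 from 9.97 and 10.77 at rest and 11.92 and 11.72 after activation, and Pnpt1 rose by 0.58 ± 0.14. Mx1 measured 7.34 and 9.15 at rest and 9.76 and 10.12 after activation, Cmpk2 9.503 and 10.25 at rest and 12.35 and 11.70 after activation and Rsad2, encoding viperin, 11.81 and 12.18 at rest and 13.04 and 12.93 after activation, none past the test (adjusted p = 0.0943, 0.0625 and 0.117). Bst2, encoding tetherin, differed by 0.56. Of 31 TRIM ligase and ISG15 pathway genes, 3 rose and 1 fell. Their median difference was 0.62, with 0.80 without resting replicate 2 and 0.28 without resting replicate 1. Trim35, Trim26 and the ubiquitin ligase gene Rnf19b rose by 0.82 ± 0.13, 0.76 ± 0.15 and 0.64 ± 0.12, and Trim28, encoding the corepressor KAP1, fell by 0.71 ± 0.13. Trim30d measured 6.06 and 8.12 at rest and 9.35 and 10.42 after activation (adjusted p = 0.0539). Over the 3 interferon effector lists 15 of 107 genes rose (14%) and 1 fell (0.935%), with the replicate block 57 and 4, and without resting replicate 2 49 and 0. The counts were 7 and 0 without resting replicate 1 and 2 and 0 without either activated replicate.

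**Figure D4:**
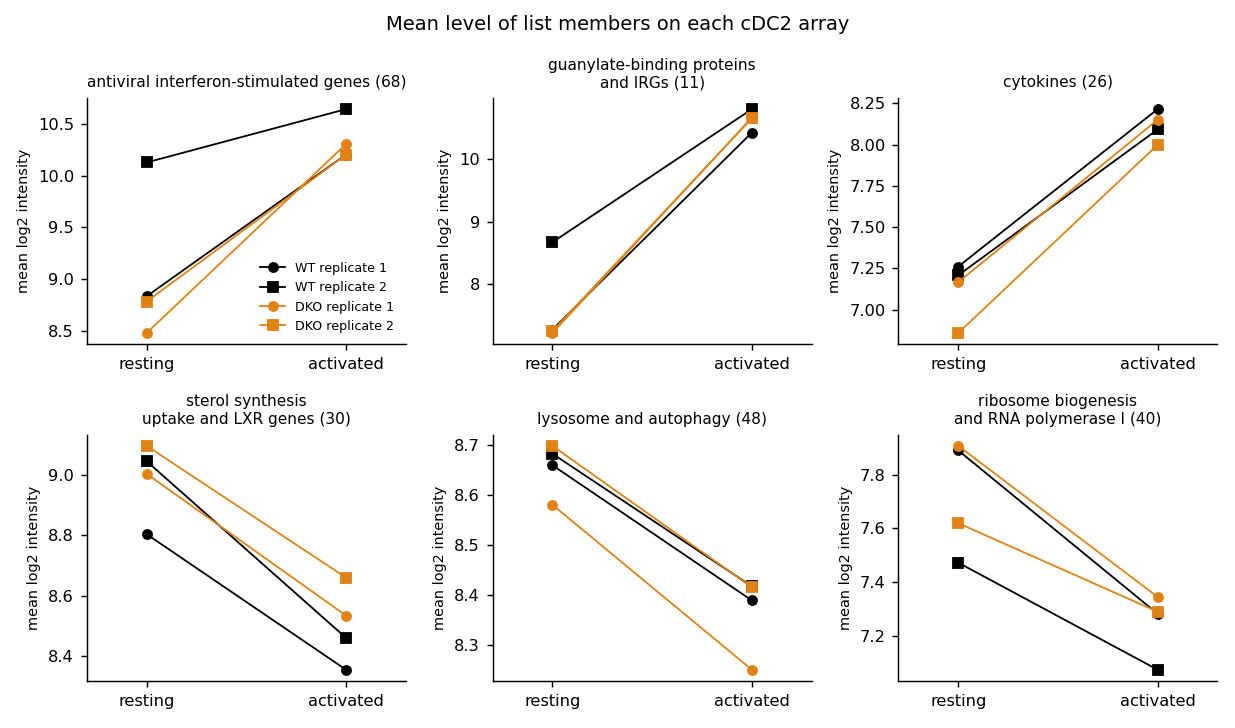
Mean log2 intensity of the tested members of 6 gene lists on each cDC2 array, with WT in black and DKO (Batf-/- Batf3-/-) in orange, circles for replicate 1 and squares for replicate 2, and lines joining the arrays of 1 replicate number. For the antiviral interferon-stimulated genes, resting WT replicate 2 (10.13) is near the activated level, while the other resting arrays lie between 8.48 and 8.83. IRGs in the panel title are immunity-related GTPases.

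Several genes of co-stimulatory, inhibitory and TNF family ligands rose. In the B7, SLAM and inhibitory ligand list 8 of 23 genes rose and 1 fell. Cd80 and Cd86, the ligands of CD28, rose by 1.04 ± 0.12 from 11.08 and 11.18 at rest and 12.04 and 12.30 after activation and by 0.66 ± 0.08 from 12.29 and 12.32 at rest and 12.99 and 12.95 after activation. The PD-1 ligand genes Cd274 and Pdcd1lg2 rose by 1.24 ± 0.09 (adjusted p = 0.00324) and 1.19 ± 0.14, and for Cd274 the activated arrays measured 11.91 and 11.94. Slamf8 rose by 1.93 ± 0.23, Pvr, a ligand of DNAM-1 and TIGIT, by 1.37 ± 0.15, and Icam1, the adhesion ligand of LFA-1, by 0.88 ± 0.18, while Ly9 of the SLAM family fell by 0.82 ± 0.19. Lag3, encoding an inhibitory receptor for MHC class II, also rose, by 1.49 ± 0.30. Of 16 TNF family genes 4 rose and 0 fell in limma (6 higher and 2 lower at an unadjusted p below 0.05). Tnfsf15, encoding TL1A, measured 6.83 and 6.76 at rest and 10.62 and 10.21 after activation and rose by 3.62 ± 0.19 (adjusted p = 0.00109), Tnfsf9, encoding the 4-1BB ligand, rose by 2.18 ± 0.26 from 8.11 and 7.71 at rest and 9.999 and 10.18 after activation, Cd70, the ligand of CD27, by 1.69 ± 0.33, and Tnfrsf14, encoding HVEM, by 1.18 ± 0.22. Cd40 measured 10.27 and 11.26 at rest and 11.88 and 12.46 after activation without passing the test (adjusted p = 0.0636).

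Of 26 MHC class I processing genes 0 rose and 0 fell in the limma fit (5 higher and 3 lower at an unadjusted p below 0.05), against 7 rises and 6 falls with the replicate block. Nlrc5, the transactivator of class I genes, measured 10.92 and 11.96 at rest and 12.59 and 12.58 after activation (adjusted p = 0.0678), Tap1, a subunit of the peptide transporter, differed by 0.57, and Psmb9, an immunoproteasome subunit, by 0.78. Without resting replicate 2, 3 of the 26 rose. Of 17 MHC class II genes 1 rose and 2 fell. H2-DMa, a chain of the peptide exchange factor, rose by 0.49 ± 0.10. Ifi30, encoding the lysosomal thiol reductase GILT, fell by 0.79 ± 0.17 from 12.11 and 12.14 at rest and 11.40 and 11.27 after activation, and Rfxank, a subunit of the class II promoter complex, fell by 0.65 ± 0.14. Ciita (0.30), H2-Ab1 (-0.09) and Cd74 (-0.02) did not pass the test. Of 36 maturation and migration genes 1 rose, the granzyme inhibitor gene Serpinb9, by 0.88 ± 0.17, and 2 fell, Rogdi by 1.23 ± 0.20 and Tbc1d4 by 0.54 ± 0.13. Fscn1 (0.74), encoding the actin bundler fascin, Cd83 (0.30) and Relb (-0.21) did not pass the test. Over the 5 lists 14 of 117 genes rose (12%) and 5 fell (4.27%), and with the replicate block 39 and 20. Omitting resting replicate 1 gave 4 and 0, without resting replicate 2 16 and 0, without activated replicate 1 9 and 1, and without activated replicate 2 2 and 0.

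Several Fc, paired and scavenger receptor genes fell. Of 25 Fc receptor, ITAM adaptor and paired receptor genes 1 rose and 5 fell, with a median of -0.34. Ceacam1, an inhibitory adhesion receptor with ITIM motifs, measured 9.21 and 8.20 at rest and 6.18 and 5.59 after activation and fell by 2.82 ± 0.49 (adjusted p = 0.0248), the largest fall of all genes tested. Lilra6 fell by 1.40 ± 0.24, the CD300 family genes Cd300a and Cd300c2 by 1.10 ± 0.24 and 1.04 ± 0.24, and Treml4 by 1.04 ± 0.24. Fcgr4, the receptor whose promoter is printed above, measured 5.82 and 6.45 at rest and 8.51 and 8.80 after activation and rose by 2.52 ± 0.27. Of 17 complement and scavenger receptor genes 0 rose (1 higher at an unadjusted p below 0.05 in limma) and 3 fell, namely the scavenger receptor genes Scarb1 by 0.91 ± 0.18 and Cd36 by 0.92 ± 0.10 and the adhesion receptor gene Adgre5 (CD97) by 0.71 ± 0.12. Among 21 C-type lectin and Siglec genes, Cd69, an early activation antigen that retains cells in tissue, measured 7.12 and 7.19 at rest and 10.20 and 10.07 after activation and rose by 2.98 ± 0.40, and Clec2i fell by 1.26 ± 0.25. Cd300a, Treml4, Cx3cr1 and Csf1r belong to the marker lists of cDC2 or monocytes as well. In the cDC2 marker list 4 of 12 tested genes fell and Tbx21 rose, and in the monocyte list 4 of 10 fell and 0 rose (1 higher at an unadjusted p below 0.05 in limma). Over all genes tested 6.57% fell and 3.97% rose. With each WT replicate left out in turn, the list median ran from -0.44 to -0.37 for cDC2 markers and from -0.44 to -0.04 for monocyte markers. In the plasmacytoid marker list 2 of 9 rose, Tcf4 and Lag3, and 2 fell, Ccr9 and Spib, all given above.

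Adhesion and motility genes gave rises and falls. Of 31 integrin and adhesion genes 2 rose and 2 fell. Jaml, a junctional adhesion molecule of leukocytes, measured 5.68 and 6.77 at rest and 7.93 and 9.14 after activation and rose by 2.31 ± 0.51, and Itga4, the α4 integrin, rose by 0.78 ± 0.16. Esam and Cd4, markers of a splenic cDC2 subset, fell by 0.79 ± 0.13 and 0.94 ± 0.19. Itgax, encoding CD11c, measured 11.22 and 10.70 at rest and 10.35 and 9.71 after activation and Itgb2 10.87 and 10.11 at rest and 9.89 and 9.09 after activation without passing the test (adjusted p = 0.172 and 0.136). Of genes acting on the cytoskeleton, the focal adhesion protein gene Zyx rose by 0.92 ± 0.13, while Myo1f, a myosin of myeloid cells, measured 9.98 and 9.68 at rest and 7.88 and 7.34 after activation and fell by 2.22 ± 0.28 (adjusted p = 0.0108), and Coro1a, the actin regulator coronin, fell by 0.62 ± 0.13. Over the 5 lists of surface, uptake and motility genes 11 of 171 rose (6.43%) and 17 fell (9.94%), and with the replicate block 24 and 40. Without resting replicate 1 the counts were 2 and 1, without resting replicate 2 8 and 5, without activated replicate 1 3 and 4, and without activated replicate 2 1 and 0.

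Among defence genes the itaconate and oxidase genes Acod1 and Cybb rose and the glutathione genes Gclc and Gpx1 fell. Acod1, the itaconate synthase of activated myeloid cells, measured 8.09 and 8.54 at rest and 10.42 and 9.86 after activation and rose by 1.82 ± 0.33, and Cybb, the catalytic subunit of the phagocyte oxidase, rose by 1.55 ± 0.24 from 9.62 and 10.31 at rest and 11.52 and 11.50 after activation. Gclc, the catalytic subunit for glutathione synthesis, measured 10.53 and 9.80 at rest and 8.96 and 8.10 after activation and fell by 1.63 ± 0.35, the glutathione peroxidase gene Gpx1 fell by 1.29 ± 0.15 from 10.14 and 10.19 at rest and 9.07 and 8.68 after activation, and the oxidase subunit gene Ncf4 fell by 0.87 ± 0.10, so that with Ifi30 2 of 31 genes rose and 4 fell. Nos2, the inducible nitric oxide synthase, measured 5.62 and 5.72 at rest and 6.47 and 7.001 after activation and Ido1 4.98 and 5.27 at rest and 6.08 and 6.99 after activation without passing the test (adjusted p = 0.158 and 0.059). In the inflammasome and necroptosis list 3 of 22 genes rose and 1 fell. Casp4, which encodes the mouse sensor of intracellular LPS known as caspase-11, measured 7.998 and 8.70 at rest and 10.12 and 10.20 after activation and rose by 1.81 ± 0.23, Mlkl, the executor of necroptosis, measured 6.09 and 7.60 at rest and 8.79 and 9.53 after activation and rose by 2.31 ± 0.50, and Pstpip1 rose by 1.07 ± 0.16, while Mefv, encoding pyrin, fell by 0.58 ± 0.10. Of 28 BCL2 family, caspase and survival genes 7 rose and 1 fell. The survival genes Bcl2l1 (BCL-XL), Xiap, Cflar (c-FLIP) and Pim1 rose by 1.01 ± 0.16, 0.87 ± 0.14, 0.49 ± 0.10 and 0.79 ± 0.16. The pro-apoptotic genes Bcl2l11 (BIM), Apaf1 and Casp6 rose by 1.36 ± 0.30, 1.58 ± 0.31 and 0.57 ± 0.14, while Bid fell by 0.70 ± 0.13. Without activated replicate 2 the difference of Bcl2l11 was 0.90 and that of the sphingosine kinase gene Sphk1 0.70. Sphk1 was the gene that rose among 21 lipid mediator genes, by 1.08 ± 0.25, and 0 fell (5 lower at an unadjusted p below 0.05 in limma). Ptgs2 (COX-2) measured 9.29 and 7.43 at rest and 10.76 and 10.36 after activation without passing the test (adjusted p = 0.07), with resting replicate 1 above resting replicate 2. Over these 4 lists 13 of 102 genes rose (12.7%) and 6 fell (5.88%), and with the replicate block 27 and 21. Dropping resting replicate 1 gave 2 and 1, without resting replicate 2 8 and 4, without activated replicate 1 3 and 3, and without activated replicate 2 0 and 0.

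Among metabolic genes falls outnumbered rises, as they did over all genes tested (6.57% fell and 3.97% rose, with the replicate block 23.9% and 11.4%). Over 8 lists 11 of 271 genes rose (4.06%) and 45 fell (16.6%), with the replicate block 34 and 117, and the median difference was -0.28. When resting replicate 1 was left out the counts were 3 and 7, without resting replicate 2 8 and 13, without activated replicate 1 6 and 12, and without activated replicate 2 2 and 0. The sterol list gave the largest share, with 12 of 30 genes fallen and 1 risen and a median of -0.44. Its falls numbered 4 without resting replicate 1, 5 without resting replicate 2, 2 without activated replicate 1 and 0 without activated replicate 2. Enzymes of cholesterol synthesis that fell were Mvd by 1.42 ± 0.20 from 8.36 and 9.0002 at rest and 7.24 and 7.28 after activation, Dhcr7 by 1.32 ± 0.20 from 7.07 and 7.07 at rest and 5.54 and 5.96 after activation, Lss by 1.29 ± 0.25, Cyp51 by 1.04 ± 0.15 and Sqle, the squalene epoxidase, by 0.98 ± 0.15. For each of these 5 enzymes both activated arrays were below both resting arrays, as for every gene called as fallen and for 36.4% of all genes tested. Mylip, the ligase that degrades the LDL receptor and a target of LXR, fell by 0.96 ± 0.19, as did Nr1h3, given above. Lpcat3, a phospholipid remodelling enzyme, rose by 0.42 ± 0.09.

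In the fatty acid list 3 of 38 genes rose and 5 fell. Scd2, a stearoyl-CoA desaturase, measured 9.04 and 9.71 at rest and 6.35 and 6.89 after activation and fell by 2.75 ± 0.46 (adjusted p = 0.0218), Fasn, the fatty acid synthase, fell by 1.26 ± 0.21 from 9.91 and 9.75 at rest and 8.81 and 8.34 after activation, the desaturase gene Fads1 by 1.33 ± 0.22 and the lipid droplet coat gene Plin3 by 0.95 ± 0.17. Lipa, the lysosomal acid lipase, measured 11.95 and 11.46 at rest and 10.10 and 9.14 after activation and fell by 2.08 ± 0.37. Outside the list Acss2, which makes acetyl-CoA from acetate, fell by 2.16 ± 0.28. By contrast Srebf1, the transcription factor gene for fatty acid synthesis, measured 7.95 and 8.04 at rest and 9.03 and 9.10 after activation and rose by 1.07 ± 0.11, and the fatty acid oxidation genes Cpt1a and Acadl rose by 0.74 ± 0.16 and 0.74 ± 0.08.

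Of 48 lysosome and autophagy genes 10 fell and 2 rose, with a median of -0.32. This list gave 0 falls without resting replicate 1 or without activated replicate 2, and 2 without either of the others. Ctsd, the aspartic protease cathepsin D, measured 8.01 and 7.73 at rest and 6.59 and 6.29 after activation and fell by 1.43 ± 0.18, Hexa, a hexosaminidase subunit, fell by 1.17 ± 0.16 from 9.26 and 9.45 at rest and 8.30 and 8.06 after activation, the ceramidase gene Asah1 by 0.93 ± 0.16 and Ctsa by 0.89 ± 0.16. Tfeb, the transcription factor that drives lysosomal genes, measured 8.18 and 7.88 at rest and 7.09 and 6.69 after activation and fell by 1.14 ± 0.20, and Mcoln1, a lysosomal calcium channel, fell by 0.67 ± 0.15. Ctsc, which activates granule proteases, went the other way, by 1.31 ± 0.20 from 8.75 and 8.77 at rest and 9.84 and 10.31 after activation, as did the galactosidase gene Gla by 0.64 ± 0.15. Outside the list the lysosomal peptidase gene Dpp7 fell by 1.69 ± 0.17 and the nuclease gene Pld4 by 1.61 ± 0.21. In the iron and heme list 5 of 19 genes fell and 0 rose (0 higher and 10 lower at an unadjusted p below 0.05 in limma), with a median of -0.52, and 0 to 2 fell when 1 replicate was left out. Ncoa4, the receptor for autophagy of ferritin, measured 10.40 and 10.73 at rest and 8.66 and 8.85 after activation and fell by 1.805 ± 0.21, the heme transporter gene Slc48a1 fell by 1.13 ± 0.20, and Fech, Blvra and Hebp1, which make, degrade and bind heme or its products, fell by 0.47 ± 0.09, 0.57 ± 0.12 and 0.65 ± 0.12. Hmox1 measured 9.83 and 9.07 at rest and 8.65 and 7.37 after activation without passing the test (adjusted p = 0.101).

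Of the glucose genes, the hexokinase genes Hk2 and Hk3 rose. Hk2, an inducible hexokinase, measured 6.42 and 6.87 at rest and 8.62 and 9.12 after activation and rose by 2.22 ± 0.22, and Hk3 rose by 1.42 ± 0.21 from 7.05 and 7.65 at rest and 8.75 and 8.79 after activation, while the lactate exporter gene Slc16a3 fell by 0.79 ± 0.10, the enolase gene Eno2 by 0.67 ± 0.14 and the transketolase gene Tkt by 0.60 ± 0.12, giving 2 rises and 3 falls among 29. Hif1a (0.17), Slc2a1 (-0.00), Pfkfb3 (-0.13) and Ldha (-0.27) did not pass the test. In the TCA cycle and oxidative phosphorylation list 0 of 41 genes rose (2 higher at an unadjusted p below 0.05 in limma) and 4 fell, the dehydrogenase genes Idh3g by 0.83 ± 0.10, Ogdh by 0.78 ± 0.11, Mdh2 by 0.64 ± 0.15 and Mdh1 by 0.50 ± 0.08, with a median of -0.28. Among 39 amino acid and one-carbon genes 1 rose and 5 fell. Slc7a2, an arginine transporter, rose by 1.40 ± 0.29, whereas Haao of the kynurenine pathway fell by 1.16 ± 0.17, the aspartate aminotransferase gene Got2 by 1.07 ± 0.18, and the transporter genes Slc38a9, Slc38a2 and Slc36a1 by 1.00 ± 0.20, 0.79 ± 0.15 and 0.60 ± 0.11. In nucleotide metabolism, Upp1, which cleaves uridine to uracil, measured 5.39 and 5.80 at rest and 8.76 and 9.46 after activation and rose by 3.52 ± 0.25 (adjusted p = 0.00311), and Ada, which deaminates adenosine, rose by 0.56 ± 0.13, against a fall of Nt5c2 by 0.78 ± 0.14 among 27 genes. Outside the list the cytosolic nucleotidase gene Nt5c1a rose by 3.51 ± 0.18 from 5.16 and 5.64 at rest and 8.87 and 8.94 after activation.

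Genes of ribosome assembly and cell division fell in shares close to the 6.57% of all genes tested that fell. In the ribosome biogenesis list 3 of 40 genes fell and 1 rose (19 lower and 1 higher at an unadjusted p below 0.05 in limma). With the replicate block 25 fell and 1 rose, against 23.9% and 11.4% of all genes tested, and the list median was -0.55. That median was -0.31 without resting replicate 1 and -0.38 without activated replicate 2, where the sterol list had -0.56 and -0.50, and the ribosome list gave 0 falls without either. Nop16 fell by 1.20 ± 0.23 from 9.47 and 8.90 at rest and 8.21 and 7.77 after activation, Wdr12 by 1.09 ± 0.23 and Bop1 by 0.58 ± 0.13, all assembly factors of the large ribosomal subunit, and Noc4l rose by 0.43 ± 0.10. Levels of this list also differed between replicate numbers, since its mean was 7.89 and 7.47 on the resting WT arrays and 7.28 and 7.07 on the activated ones. In the cell cycle list 0 of 44 genes rose (3 higher at an unadjusted p below 0.05 in limma) and 3 fell. The centromeric histone gene Cenpa fell by 1.40 ± 0.30, Cdk2 by 0.91 ± 0.15 and Prim1 by 0.55 ± 0.10. Among 35 cyclin D, CDK inhibitor and p53 target genes, Ccng2, a cyclin of arrested cells, measured 5.89 and 6.53 at rest and 7.95 and 8.59 after activation and rose by 2.06 ± 0.27, and the CDK inhibitor gene Cdkn1b (p27) rose by 0.62 ± 0.12, whereas Cdk4, Rb1, Trp53inp1 and Ccng1 fell by 0.93 ± 0.11, 0.87 ± 0.10, 1.03 ± 0.15 and 0.39 ± 0.09. Among 30 DNA repair genes Fancc and Mre11a rose by 0.74 ± 0.12 and 0.63 ± 0.10 and Parp1 and Pms2 fell by 0.51 ± 0.10 and 0.63 ± 0.13.

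Factors that control translation and mRNA decay included some clear changes. Ppp1r15a (GADD34) and Ppp1r15b, which direct dephosphorylation of eIF2α, rose by 0.91 ± 0.15 and 1.13 ± 0.11, and Ern1, encoding the stress sensor IRE1α, fell by 0.59 ± 0.10, among 30 heat shock and unfolded protein response genes with 2 rises and 1 fall. Zfp36l1, which promotes decay of AU-rich mRNA, measured 9.27 and 9.83 at rest and 7.79 and 7.89 after activation and fell by 1.71 ± 0.20 (adjusted p = 0.00915), while the related Zfp36 differed by -0.01. Arid5a, given above, the antiviral factor gene Zc3hav1 and the poly(A)-binding protein gene Pabpc1 rose, the latter pair by 0.56 ± 0.13 and 0.47 ± 0.09, and the stress granule gene Tia1 fell by 0.65 ± 0.13, for 3 rises and 2 falls among 35 genes. Over the 6 lists of proteostasis, RNA and cell cycle genes 10 of 214 rose (4.67%) and 15 fell (7.01%), and with the replicate block 28 and 68. Omitting resting replicate 1 gave 2 and 2, without resting replicate 2 8 and 8, without activated replicate 1 4 and 3, and without activated replicate 2 0 and 0.

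The receptor gene Notch1 and the ligand genes Dll4 and Dll1 rose. Notch1 measured 6.58 and 6.48 at rest and 9.72 and 9.16 after activation and rose by 2.91 ± 0.29 (adjusted p = 0.00689), and Dll4, a Notch ligand that dendritic cells show to T cells, measured 7.38 and 7.83 at rest and 9.65 and 10.67 after activation and rose by 2.56 ± 0.43. Dll1 rose by 0.94 ± 0.17, the coactivator gene Maml2 by 1.45 ± 0.21, the corepressor gene Tle3 by 1.35 ± 0.28 and the Wnt receptor gene Fzd5 by 0.53 ± 0.13, against a fall of Dvl2 by 0.47 ± 0.09, for 6 rises and 1 fall among 36 genes. Notch2, the receptor on which splenic cDC2 depend, differed by 0.03, and Jag1 measured 9.91 and 9.01 at rest and 8.18 and 8.06 after activation without passing the test (adjusted p = 0.0704). Of 25 TGF-β pathway genes the feedback inhibitor genes Pmepa1 and Skil rose by 1.38 ± 0.22 and 0.56 ± 0.12, and the matrix protein gene Tgfbi and the receptor gene Acvr2a fell by 0.94 ± 0.11 and 0.49 ± 0.10. Of 17 semaphorin and plexin genes, Sema4f measured 5.54 and 5.62 at rest and 8.497 and 8.37 after activation and rose by 2.86 ± 0.10, with an adjusted p of 0.000328, and Sema7a rose by 0.98 ± 0.13. Among 24 serpin, protease and matrix genes 5 rose and 1 fell. Cst7, an inhibitor of lysosomal cathepsins, measured 7.55 and 7.89 at rest and 9.98 and 10.12 after activation and rose by 2.33 ± 0.17. Fn1, Timp1, Serpinb1a and Mmp13 rose by 1.16 ± 0.25, 1.03 ± 0.24, 0.91 ± 0.21 and 0.72 ± 0.12, while Adam17, the sheddase of TNF, fell by 0.80 ± 0.18. Over the 4 lists 15 of 102 genes rose (14.7%) and 4 fell (3.92%), and with the replicate block 23 and 23. Without resting replicate 1 the counts were 3 and 0, without resting replicate 2 6 and 1, without activated replicate 1 8 and 1, and without activated replicate 2 3 and 0.

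**Figure D5:**
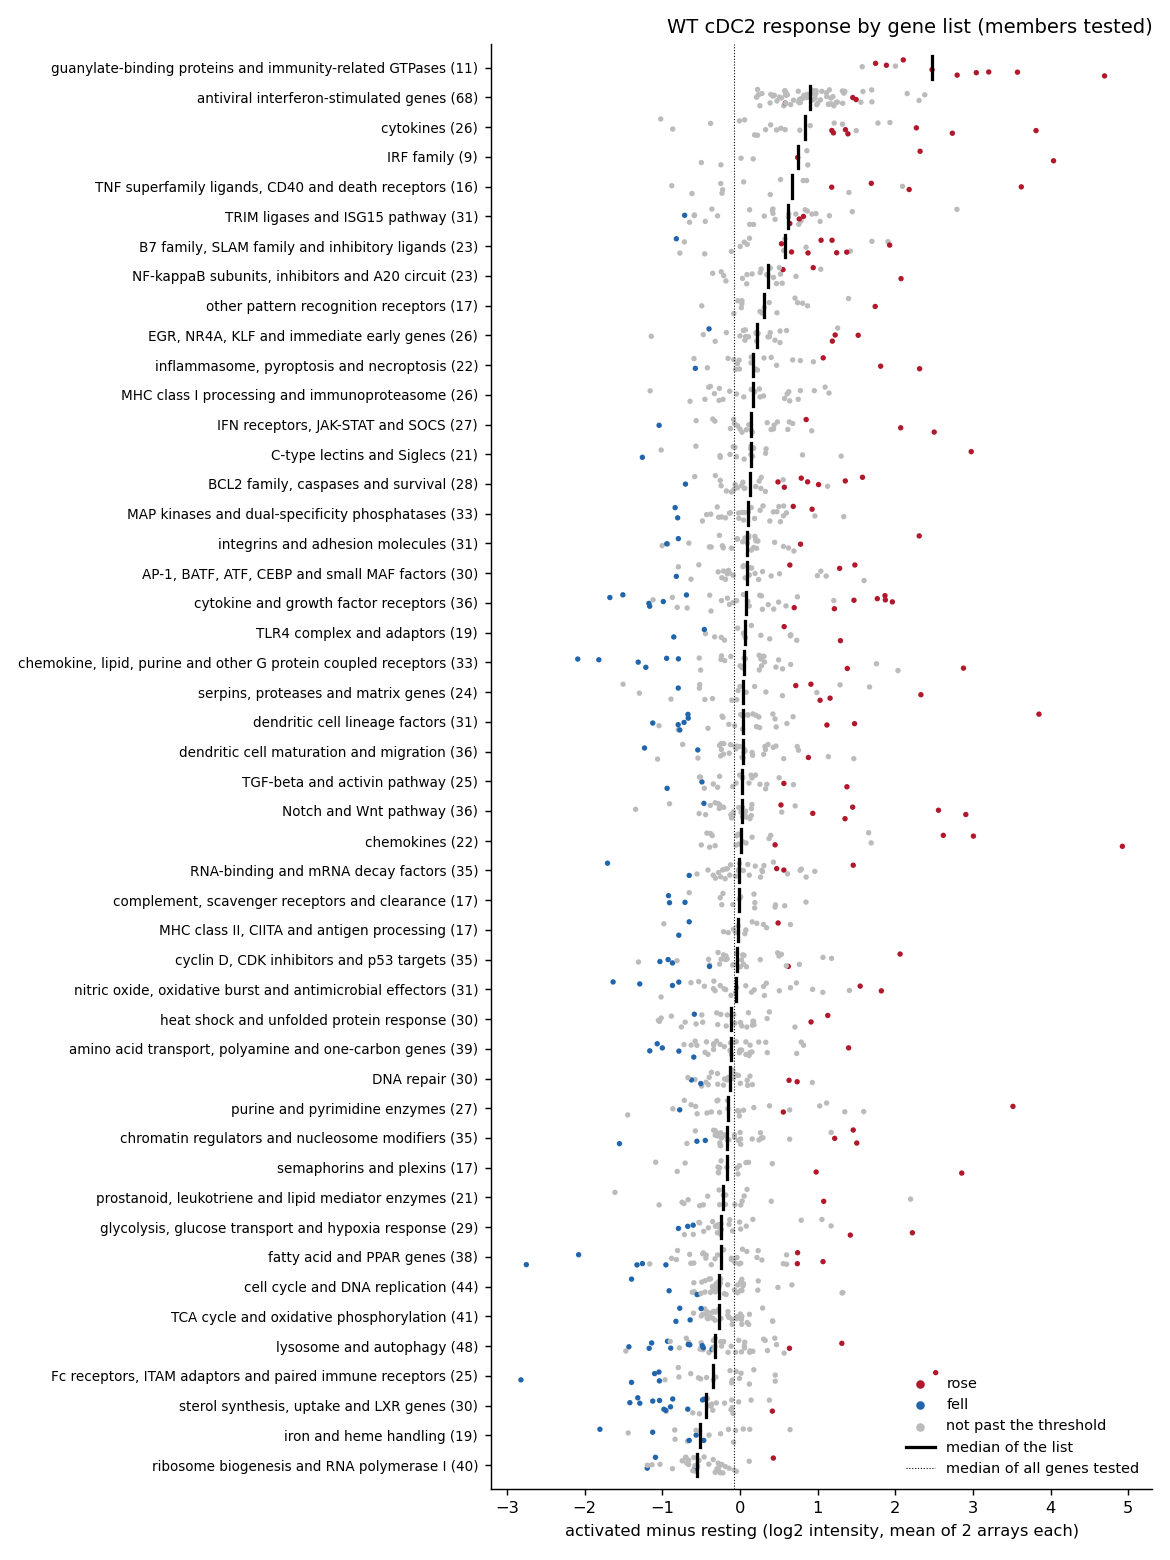
Differences between activated and resting WT cDC2 (log2 intensity) for the tested members of 48 gene lists, 1 point per gene, red where the gene rose, blue where it fell and grey otherwise, with the number tested in parentheses. Black bars mark list medians, from 2.47 for the guanylate-binding proteins and GTPases to -0.55 for ribosome biogenesis, and the dotted line marks the median of all genes tested, -0.07.

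Most called genes lay outside these functions, since 878 of the 1131 were in none of the 49 lists. Among the 25 largest rises, Hamp, encoding the iron hormone hepcidin, measured 4.32 and 4.53 at rest and 8.52 and 8.96 after activation and rose by 4.32 ± 0.31 (adjusted p = 0.00311), so that it went from below the filter to a clear signal on both activated arrays. Calhm6 measured 6.21 and 6.85 at rest and 10.82 and 10.05 after activation, Gprc5c, an orphan receptor gene, measured 6.41 and 6.26 at rest and 9.11 and 9.34 after activation and rose by 2.89 ± 0.13, and Gpr33, a chemoattractant receptor-like gene, rose by 2.70 ± 0.35 from 4.73 and 4.99 at rest and 7.09 and 8.04 after activation. Frmd5 rose by 2.91 ± 0.15, Phxr4 by 3.11 ± 0.48 and Mab21l3 by 2.76 ± 0.59, the last with activated arrays at 7.29 and 9.03. Among the 25 largest falls were Slc43a2, an amino acid transporter gene, by 2.02 ± 0.18 from 7.57 and 7.45 at rest and 5.63 and 5.36 after activation, Chst2, a sulfotransferase gene, by 1.93 ± 0.15 from 8.26 and 7.86 at rest and 6.06 and 6.204 after activation, Pip5k1c, a kinase that makes PIP2, by 1.71 ± 0.15. Pde3b, a cyclic nucleotide phosphodiesterase gene, and Stk10, a kinase of lymphoid cells, fell by 1.61 ± 0.14 and 1.67 ± 0.35. Ivns1abp fell by 1.89 ± 0.44, Foxred2 by 1.88 ± 0.18, Mical3 by 1.66 ± 0.29, Septin9 by 1.65 ± 0.32, Otulinl by 1.61 ± 0.10 and Nol4l by 1.61 ± 0.18.

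The response was set against that of DKO cDC2 by the difference between the responses, WT minus DKO, in the same limma fit. No gene passed an adjusted p below 0.05 (0.0%), and 121 (1.13%) had an unadjusted p below 0.05, with a smallest adjusted p of 1.00. In DKO cells 624 genes rose (5.82%) and 848 fell (7.9%). Of the 1131 genes called in WT 897 were called in DKO in the same direction and 1129 had the same sign. The share with the same sign in WT and DKO was not counted over all genes tested, so the 1129 has no background here. The responses share no arrays, but both were judged with the same estimate of spread for each gene. Deviations of same-numbered WT and DKO arrays also correlated, with r of 0.45 to 0.66, so the calls in WT and DKO are not independent. Among the 10 genes with the smallest interaction p in either direction, Pdcd1lg2 differed by 1.19 ± 0.14 in WT and by 0.28 in DKO (difference 0.91 ± 0.19, unadjusted p = 0.0028), with resting DKO arrays at 8.39 and 8.62, above both resting WT arrays. Cxcl11 differed by 3.01 ± 0.19 in WT and 4.35 in DKO (difference -1.34 ± 0.26, unadjusted p = 0.00187), Gprc5c by 2.89 ± 0.13 and 3.98 (difference -1.09 ± 0.19, unadjusted p = 0.000991), and Sucnr1 by -0.95 and -2.11 (difference 1.17 ± 0.20, unadjusted p = 0.000923). None of these differences passed the adjustment in limma. The antiviral interferon-stimulated genes had a median difference of 1.59 in DKO, with 29 of 68 risen, against 0.90 and 3 in WT. Resting replicate 2 was the high array in WT, and its part in the contrast was not tested beyond the WT values given without it.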

How the data were processed

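RNA of sort-purified spleen dendritic cells was hybridised to Affymetrix gene arrays, 9 in all, of which the comparison uses 4. The authors deposited linear intensities made with Affymetrix Expression Console by RMA (background correction, quantile normalization and probe summary), as the submitters' processing notes record without versions or a genome build. The array medians of the deposited intensity values lay between 53.4 and 55.6, and values of the same rank differed between arrays by at most 0.31 on the log2 scale, so RMA had already equalised the arrays and a change in total RNA per cell would not be visible. No detection p-values or probe-level values were used here, and the number of arrays limits the precision.

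The deposited intensities were taken to log2. Transcript clusters with 1 gene symbol in the platform annotation were kept (1621 had several symbols and 5443 none), and where a gene had more than 1 cluster (999 genes), that of highest mean was used. Groups were compared in limma 3.58.1 (R 4.3.3) with lmFit and eBayes on the 9 arrays, fitting 5 group means (4 residual degrees of freedom), and p-values were adjusted over all 10728 genes tested by the Benjamini-Hochberg method at 0.05. The script was tested on simulated data. Labels give each group replicates 1 and 2 without saying that a number marks a shared litter, batch or day. Deviations of same-numbered arrays correlated across genes with r of 0.45 to 0.69 between the 6 pairs of cDC2 groups, so values within each number and a fit with the number as a block are given beside the unblocked fit.

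The genes and the 49 functional and 11 marker lists were chosen with earlier results of these data known. Genes named are key members of each list, up to 6 risen and 6 fallen members of each, up to 4 members of large difference that did not pass, all members of lists of up to 12, the 25 largest rises and falls among genes whose arrays do not overlap (unnamed and Rik symbols, small RNAs, olfactory receptors and receptor segments passed over), and the 5 genes of smallest interaction p in each direction. The promoters printed are those of the 6 genes with the largest rise of at least 2-fold that hold an ISRE or κB match, among genes with a RefSeq promoter. Unnamed and Rik symbols and promoters on 1 chromosome were passed over. Alternatives covered the block, the normalization, the filter, the choice of cluster, the intensity trend, the arrays in the fit and each replicate left out. 1 of the functional lists is counted in its total but not reported here by itself.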

Additional observations from a re-analysis of the deposited data

Results flagged for a closer look

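Transcript clusters with several gene symbols or none were outside the comparison. Of 7064 such clusters, 2773 passed the intensity filter, and in the same limma fit 37 rose (24 of them at least 2-fold) and 40 fell (10 at least 2-fold) in activated WT cDC2. The largest rise was 3.00 and the largest fall -1.99 on the log2 scale. These clusters are unnamed here, and a cluster with several symbols cannot be given to any of its genes.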

How the results depend on the processing

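The replicate block raised the counts from 426 rises and 705 falls to 1222 and 2569 with all 9 arrays and to 1245 and 2362 with the 4 WT cDC2 arrays, whereas those 4 arrays without a block gave 15 rises and 2 falls on 2 residual degrees of freedom. The correlation of same-numbered arrays is a hint from the data, with 2 numbers only, and not from the design. Leaving out each WT replicate in turn gave 47 to 318 rises and 16 to 232 falls, where the lone array left in a group was assumed to vary like the other groups. An adjusted p below 0.01 left 81 rises and 49 falls, and a change of at least 2-fold 233 and 145. Quantile normalization, centring on the median, the intensity trend, the mean of a gene's clusters, no filter, a stricter filter and the 8 cDC2 arrays alone kept both counts within 1.5 times of the main ones, from 347 to 460 rises and from 477 to 709 falls. The interaction gave 0 genes under each alternative. No called gene among the 576 named changed direction under any alternative. With a replicate left out this had to hold, since the activated and resting arrays of called genes do not overlap. The block, the intensity trend, the filter and the arrays in the fit left the difference itself unchanged. Only another scaling or the mean of a gene's clusters could have reversed a called gene. Of the 267 called among the named genes, 253 lost the call with the 4 WT arrays alone. Of the named genes that passed no threshold, 57 changed sign under some alternative and 11 under another scaling. The median changed sign under some alternative in 22 of 58 lists, and under another scaling in 4, among them those of maturation and migration, complement and scavenger receptors, and RNA-binding factors.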

Other observations

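Of the 233 genes that rose at least 2-fold, 36 started from a resting mean at or below the intensity filter of 5.94 on the log2 scale. Besides Iigp1, Hamp, Il6 and Upp1 they included Hcar2, Sema4f and Gpr33, given above, the actin-binding protein gene Cnn3 (a rise of 2.32), the growth factor gene Pdgfc (1.91), the histone methyltransferase gene Prdm9 (1.95), the dystrophin complex gene Sgcb (2.04), the cilium gene Intu (1.97), the lymphotoxin gene Lta (1.18) and the serotonin receptor gene Htr2a (1.04). These genes were picked for this description after their values were seen.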
